A study of Mus musculus with 24 samples.

Results

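Gene expression in mouse cells harvested 2 days after auxin, which depletes CTCF in them, had been washed out was compared with that of never-treated cells harvested on the same day. The comparison takes the libraries labelled day 4 washout (2 libraries) and day 6 control (2 libraries), 4 of the 24 libraries in the series. All groups come from F123 mouse embryonic stem (ES) cells whose CTCF carries an auxin-inducible degron (CTCF-AID), so the controls carry the tagged protein too. Day 4 washout cells were differentiated toward neural progenitors with auxin for 4 days and harvested 2 days after its removal. Day 6 auxin cells were kept in auxin for all 6 days, and day 6 control cells were differentiated for 6 days without it. Day 4 auxin and day 4 control cells mark the state at the time of removal. Auxin went into the medium at 1 µl of 500 mM stock for each ml, and the medium was renewed every 24 h. The comparison asks what remains abnormal once CTCF can return.

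CTCF is a zinc-finger protein that binds DNA at a long motif and stops the cohesin ring as it extrudes chromatin loops. It thereby sets the borders of contact domains, and at promoters it can bring distant enhancers near. The auxin-inducible degron lets a plant ubiquitin ligase destroy the tagged protein while auxin is present, and removal of auxin lets newly made protein accumulate. During neural differentiation, stem cells lose the pluripotency network, pass through Sox1- and Pax6-expressing progenitors, and then use proneural basic helix-loop-helix (bHLH) factors to make neurons.

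Total counts were 51957012 and 56657334 in day 4 washout libraries, against 61541152 and 72048935 in day 6 control libraries. The 16 differentiation libraries, with totals of 51053184 to 72048935, were fitted together, and 22587 genes passed the filter on low counts. Levels are CPM, edgeR's depth-scaled counts, in which each gene's reads are divided by the scaled total of the library, fold changes are log2 with their standard error (SE), n is 2 per group, and a gene is called at an adjusted p under 0.05 in edgeR's quasi-likelihood test. The labels do not tell whether the 2 replicates of a group were grown separately, so p-values measure the spread between these libraries, which may be technical. The 4 libraries of both washout groups stood apart from the other 12 in ways that are not specific to a gene. Of counts from 1 to 20, 59.6% to 60.5% were even in the washout libraries, against 65.9% to 72.2% in the other 12. Genes annotated as ribosomal RNA took 0.0126% to 0.0187% of the washout counts, against 0.0938% to 0.142% in the others. Removal of auxin, handling and library preparation cannot be told apart for these groups, and cells taken through a washout without depletion were not analysed here.

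Ctcf mRNA (chr8:105636568-105682922, plus strand) was close to control. It stood at 210 and 218 CPM in day 4 washout libraries, 257 and 271 CPM in day 6 auxin libraries, and 207 and 208 CPM in day 6 control libraries. The log2 fold change of washout against control was 0.04 ± 0.08 (adjusted p = 0.75). Auxin removes the protein rather than the mRNA, and the return of CTCF protein was not measured in these data. The labels name embryonic stem cells as the source, and markers of neural progenitors were present in the controls. Nes, an intermediate filament of neural progenitors, had 203 and 194 CPM in washout libraries against 147 and 144 CPM in day 6 controls. Pax6, a homeobox factor of neural progenitors, had 10.3 and 9.04 CPM against 33.2 and 33.7 CPM. Day 6 controls also held the pluripotency factor Pou5f1 (Oct4) at 85.8 and 80.1 CPM.

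The washout cells differed from day 6 control cells across much of the transcriptome, in both directions. Of 22587 genes, 3789 were higher (16.8%) and 3869 were lower (17.1%), together 33.9%. A change of at least 2-fold was seen for 1178 higher and 1046 lower genes. The fit of all 24 libraries, with a common dispersion of 0.0439 against 0.0051 in the 16, called 1635 genes. The 2 washout and 2 control libraries did not overlap for 69.4% of all genes. Of the genes described in the following paragraphs, Mgat4c, Nr0b1, Boc, Gbx2, Meox1, Foxa1, Lum, Pcdhga7, Dhcr7 and Cyp1a1 kept their direction in the fit of all 24 libraries without a call there (adjusted p of 0.066 to 0.67). Of the genes higher in washout, 1325 had all 4 washout libraries above the other 12 differentiation libraries, against 7.91% of all tested genes. Of the genes lower in washout, 1073 had all 4 below the other 12, against 6.32% of all genes. For these the washout state and the difference between libraries cannot be told apart. In the remaining called genes at least 1 washout library lay within the range of the other 12. This does not free them of the difference between libraries, because the other 12 cover several days, with and without auxin.

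The change from day 4, when auxin was removed, was then followed gene by gene. On day 4, auxin-treated cells differed from controls in 5318 genes (23.5%), 2659 higher and 2659 lower (11.8% each). Of those lower on day 4, 1233 were also lower in washout, which is 46.4% of the day 4 list and 31.9% of the washout list, beside 17.1% of all genes. Of those higher on day 4, 1055 were also higher in washout, 39.7% of the day 4 list and 27.8% of the washout list, beside 16.8% of all genes. These 2 comparisons share no library. A further 2518 genes called on day 4 were not called in washout, and 512 were called in the opposite direction. The test of the difference between both departures from control called 4694 genes (20.8%). Of the 2288 genes that kept their direction, 1723 showed no called change in the size of the departure, 316 had a smaller departure in washout and 249 a larger one.

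**Figure D1:**
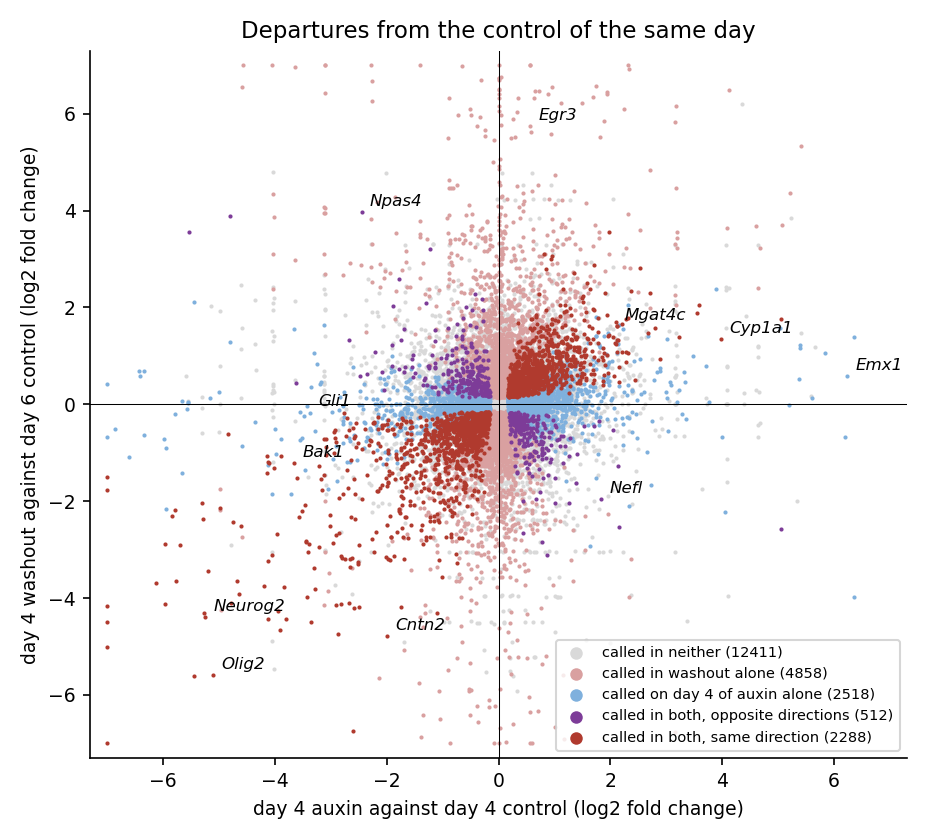
Each point is 1 of 22587 tested genes, placed by its log2 fold change in day 4 auxin against day 4 control (x axis) and in day 4 washout against day 6 control (y axis), with values beyond 7 drawn at 7. The 2288 genes called in the same direction in both lie in the lower left and upper right corners, with Olig2, Neurog2 and Cntn2 at the low end, and the 2518 genes called on day 4 alone lie along the horizontal line.

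Genes of neurons were lower in washout than in day 6 controls in nearly the whole list. Of 40 tested neuronal genes (cytoskeleton, adhesion and synapse), 38 were lower in washout than in day 6 controls and 1 was higher, with a median log2 fold change of -1.96, against 0.00 over all genes, where 17.1% were lower. On day 4 of auxin 27 of them were lower and 4 higher, beside 11.8% of all genes each way. The departure from control was lower in washout than on day 4 for 18 and higher for 3, beside 10.5% and 10.2% of all genes. The list's summed level was 253 and 243 CPM in washout libraries, 268 and 260 CPM in day 6 auxin libraries, and 891 and 938 CPM in day 6 controls. In this sum washout and day 6 auxin libraries lay together, far below the controls. Over single members the median log2 fold change of washout against day 6 auxin was 0.51. On day 4 the summed level was 233 and 245 CPM in auxin libraries against 266 and 274 CPM in controls, so the sums were much closer then. The median log2 fold change over the members was nevertheless already -1.30 on day 4. In 2 of the 40 members all 4 washout libraries lay below the other 12. In bulk RNA, fewer neurons and less neuronal RNA per cell cannot be told apart.

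Olig2 (chr16:91225457-91228677, plus strand), a bHLH factor of motor neuron and oligodendrocyte progenitors, had 0.156 and 0.105 CPM in day 4 washout libraries, 0.0668 and 0.0725 CPM in day 6 auxin libraries, and 6.38 and 6.24 CPM in day 6 controls. The control libraries lay far above all others on day 6 (washout against control -5.59 ± 0.26, adjusted p = 2.5e-10). At removal it had 0.147 and 0.244 CPM in day 4 auxin libraries, against 6.52 and 7.28 CPM in day 4 controls (-5.10 ± 0.24, adjusted p = 2.9e-10). Its departure did not change detectably between these times (difference -0.49 ± 0.45, adjusted p = 0.51).

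Rfx4 (chr10:84756062-84906538, plus strand), a winged-helix factor of the developing neural tube, behaved alike, with 0.721 and 0.385 CPM in washout libraries against 13.9 and 14.1 CPM in day 6 controls (-4.67 ± 0.24, adjusted p = 5.4e-10). Neurog2, a proneural bHLH factor, had 0.234 and 0.35 CPM in washout libraries against 6.51 and 6.01 CPM in day 6 controls (-4.40 ± 0.37, adjusted p = 1.8e-07). Sox1, among the earliest markers of neural fate, had 1.79 and 1.4 CPM in washout libraries, 2.57 and 2.59 CPM in day 6 auxin libraries, and 14.7 and 16.7 CPM in day 6 controls (washout against control -3.30 ± 0.16, adjusted p = 3.2e-10). For these 3 genes the washout and control libraries did not overlap, and Sox1 was lower in washout than in day 6 auxin libraries (-0.70, adjusted p = 0.0082). All 4 washout libraries of Sox1 lay below the other 12, so for this gene the washout state and the difference between libraries cannot be told apart.

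Some neuronal genes were low in the controls as well on day 4, and their distance from control was larger after the washout. Cntn2 (chr1:132509427-132543256, minus strand), an axonal adhesion molecule, had 2.61 and 2.98 CPM in washout libraries, 3.91 and 3.88 CPM in day 6 auxin libraries, and 75.4 and 78.7 CPM in day 6 controls (washout against control -4.78 ± 0.13, adjusted p = 2e-12). Day 4 controls held only 10.2 and 11.2 CPM, and the departure from control was larger in washout than on day 4 by -2.80 (adjusted p = 3.5e-08). Elavl4 (chr4:110203722-110351909, minus strand), a neuronal RNA-binding protein also called HuD, had 1.05 and 1.16 CPM in washout libraries against 18.9 and 21.2 CPM in day 6 controls (-4.18 ± 0.16, adjusted p = 2e-11). Slc18a3, the vesicular acetylcholine transporter, had 0.701 and 0.385 CPM in washout libraries against 9.19 and 12.1 CPM in day 6 controls (-4.30 ± 0.24, adjusted p = 1.5e-09). All 3 had a higher level in day 6 than in day 4 controls and stayed low in washout.

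Part of the neuronal genes were higher than in day 6 auxin cells while remaining below control. Nhlh2, a bHLH factor of young neurons, had 0.623 and 0.736 CPM in washout libraries, 0.134 and 0.109 CPM in day 6 auxin libraries, and 14 and 15.5 CPM in day 6 controls (washout against day 6 auxin 2.47, adjusted p = 3.9e-05). Neurod4, a further bHLH factor, had no count in either day 4 auxin library and was at least 149-fold lower there than in day 4 controls, taking 3 counts over the group as the floor. In washout it had 0.429 and 0.491 CPM, against 10.9 and 10.1 CPM in day 6 controls (-4.50 ± 0.34, adjusted p = 8.1e-08). Over the neuronal list, 19 members were higher and 6 lower in washout than in day 6 auxin cells, where 34.6% of all genes were called.

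**Figure D2:**
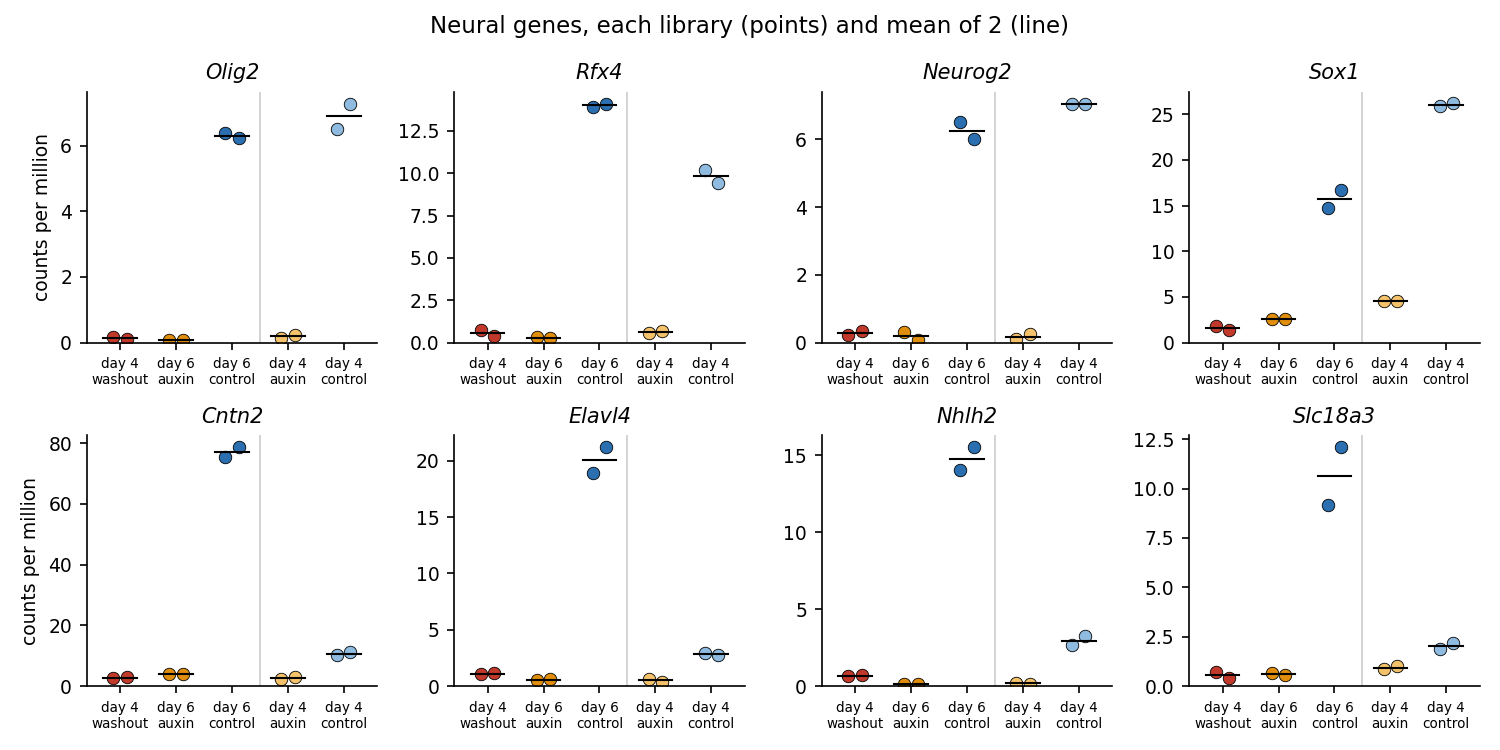
CPM of 8 neural genes in each library of 5 groups, with the mean of 2 libraries as a line; the vertical rule separates the day 6 harvest from day 4. In all 8 panels the day 4 washout libraries sit with the day 6 auxin libraries near the bottom, below both day 6 control libraries.

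Other lists of the neural lineage also held more lower than higher genes, to be read against the 17.1% lower and 16.8% higher of all genes. Of 30 neural progenitor genes, 18 were lower and 5 higher in washout, the higher ones at about the share of all genes. Among 30 neural tube patterning genes, 16 were lower and 4 higher, and of 27 proneural and Notch genes 14 were lower and 6 higher. Of 33 motor neuron and interneuron genes, 17 were lower and 2 higher. Chat, which makes acetylcholine, had 0.039 and 0.105 CPM in washout libraries against 2.48 and 2.64 CPM in day 6 controls (-5.08 ± 0.51, adjusted p = 1.1e-06). Lhx4, a LIM homeobox factor of motor neurons, had 0.156 and 0.14 CPM against 3.29 and 3.8 CPM (-4.57 ± 0.36, adjusted p = 8e-08). The progenitor list was not uniformly low, since Nes was higher in washout.

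Lists of genes that pattern the neural tube held more lower than higher members, beside 17.1% lower and 16.8% higher of all genes. Of 39 tested Hox genes, which give cells their position along the body axis, 21 were lower, 2 were higher and 16 were not called (median -0.47). Hoxb8 had 36.3 and 27.9 CPM in washout libraries against 73 and 86.1 CPM in day 6 controls (-1.31 ± 0.12, adjusted p = 2.6e-07). Of 24 retinoic acid genes 15 were lower and 4 higher. Crabp1, which binds retinoic acid in the cytoplasm, had 5.3 and 5.8 CPM in washout libraries against 19.6 and 19.7 CPM in day 6 controls (-1.82 ± 0.14, adjusted p = 4.5e-08). Stra6, a membrane receptor for vitamin A uptake, had 135 and 132 CPM against 259 and 276 CPM (adjusted p = 6.3e-09). Of 20 hedgehog genes 12 were lower and 2 higher, although Gli1 itself was not called. Neural crest genes included 9 lower and 4 higher of 17, with Ednrb, the endothelin receptor of crest cells, at 1.75 and 1.66 CPM in washout libraries against 11.7 and 11.6 CPM in day 6 controls (-2.77 ± 0.16, adjusted p = 2e-09).

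Of 21 core pluripotency genes 11 were higher and 5 lower in washout, and of 21 naive pluripotency genes 12 were higher and 1 lower, beside 16.8% higher and 17.1% lower of all genes. On day 4 of auxin 9 core genes were higher and 3 lower, and 11 naive genes were higher and 2 lower. Of all genes, 11.8% were called each way on day 4. For 5 core and 2 naive members all 4 washout libraries lay below the other 12. Pou5f1 (chr17:35506018-35510772, plus strand) had 158 and 155 CPM in washout libraries, 175 and 170 CPM in day 6 auxin libraries, and 85.8 and 80.1 CPM in day 6 controls (washout against control 0.91 ± 0.07, adjusted p = 7.7e-08). Nanog had 20 and 20.8 CPM in washout libraries, 19.7 and 20.4 CPM in day 6 auxin libraries, and 10.7 and 10.9 CPM in day 6 controls (washout against control 0.92 ± 0.06, adjusted p = 2e-08). Esrrb, a nuclear receptor of naive ES cells, had 86.8 and 85.3 CPM in washout libraries, 140 and 132 CPM in day 6 auxin libraries, and 38.3 and 39.3 CPM in day 6 controls (washout against control 1.15 ± 0.07, adjusted p = 2.4e-09). For Pou5f1 and Nanog washout lay level with continued auxin, and for Esrrb it lay between auxin and control (washout against day 6 auxin -0.66, adjusted p = 1e-06). Gbx2 went the other way, with 5.2 and 5.4 CPM in washout libraries against 13.9 and 14.4 CPM in day 6 controls (-1.41 ± 0.12, adjusted p = 1.1e-07), and its 4 washout libraries were below the other 12.

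Genes of other germ layers are to be read against 16.8% higher and 17.1% lower of all genes. Of 33 endoderm genes 11 were higher, or 6 without day 6 control replicate 2, and 5 were lower, and of 29 primitive streak and mesoderm genes 11 were higher and 5 lower. Sox17, an endoderm and endothelial factor, had 63.8 and 72.8 CPM in washout libraries against 31 and 32.9 CPM in day 6 controls (1.10 ± 0.09, adjusted p = 1.2e-07), while Foxa1 had 57.7 and 56.3 CPM against 110 and 119 CPM (-1.01 ± 0.06, adjusted p = 2.3e-09). Meox1, a homeobox factor of somites, had 16.2 and 16.6 CPM in washout libraries against 54.1 and 54.8 CPM in day 6 controls (-1.73 ± 0.09, adjusted p = 7.6e-10). In the blood and endothelium list 7 of 23 genes were higher, or 4 without day 6 control replicate 2, and 3 were lower. Spi1 (PU.1), a blood cell factor, had 2.05 and 1.94 CPM in washout libraries, 3.24 and 4.29 CPM in day 6 auxin libraries, and 0.165 and 0.363 CPM in day 6 controls (washout against control 2.87 ± 0.30, adjusted p = 1.9e-06).

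Several genes that were higher in auxin on day 4 were still higher in washout. Mgat4c, a glycosyltransferase gene, had 3.39 and 3.45 CPM in washout libraries, 5.16 and 5.62 CPM in day 6 auxin libraries, and 1.06 and 1.17 CPM in day 6 controls (washout against control 1.61 ± 0.19, adjusted p = 6.3e-06). Foxf2, a forkhead factor of mesenchyme, had 13.8 and 13.8 CPM in washout libraries, 21.2 and 22.4 CPM in day 6 auxin libraries, and 4.68 and 5.67 CPM in day 6 controls (washout against control 1.41 ± 0.13, adjusted p = 3.3e-07). Fyb, an adaptor of immune-cell signalling, had 31.7 and 32.3 CPM in washout libraries, 51 and 53.4 CPM in day 6 auxin libraries, and 14.3 and 12.4 CPM in day 6 controls (washout against control 1.26 ± 0.08, adjusted p = 7.8e-09). In all 3 the washout libraries lay between the other groups, above control and below continued auxin. A gene between these groups cannot have all 4 washout libraries standing apart, so that criterion says nothing about these 3. Car8, Nr0b1 and Npas2 followed with log2 fold changes of 1.45, 1.55 and 1.24.

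Another set of genes was back at a level not called different from control. Of the 2659 genes lower on day 4 of auxin, 1161 were not called in washout, and for 547 of them the departure was also called smaller by the test of the difference. Of the 2659 higher ones, 1357 were not called in washout and 615 also had a smaller departure. A missed threshold does not show equality, so the genes named here, picked after their values were seen, have both criteria. Which genes are not called also depends on the fit. Without the day 2 auxin libraries, 10013 genes were called in washout against control instead of 7658, and 7 of 175 named genes gained a call. Gli1 (chr10:127329882-127341974, minus strand), the hedgehog pathway's transcription factor and target, had 31.6 and 33.3 CPM in washout libraries, 10.4 and 11.7 CPM in day 6 auxin libraries, and 36.6 and 36.5 CPM in day 6 controls (washout against control -0.17 ± 0.09, adjusted p = 0.15). On day 4 it had stood at 2.23 and 2.62 CPM in auxin libraries against 24.9 and 26 CPM in controls (-3.38 ± 0.11, adjusted p = 8.9e-12). Plagl1, an imprinted zinc-finger gene, had 973 and 860 CPM in washout libraries, 488 and 497 CPM in day 6 auxin libraries, and 982 and 985 CPM in day 6 controls (washout against control -0.10 ± 0.11, adjusted p = 0.54). On day 4 it had stood at 76.8 and 84.5 CPM in auxin libraries against 352 and 390 CPM in controls. Edil3, a secreted integrin ligand, had 17.8 and 17.6 CPM in washout libraries, 2.04 and 2.43 CPM in day 6 auxin libraries, and 13.8 and 15.5 CPM in day 6 controls (washout against control 0.27 ± 0.13, adjusted p = 0.12). In all 3 genes the washout libraries were far nearer to control than to continued auxin.

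Genes that were higher on day 4 of auxin returned as well. Emx1 (chr6:85187438-85204462, plus strand), a homeobox factor of the dorsal forebrain, had 0.0779 and 0.105 CPM in washout libraries, 8.12 and 5.98 CPM in day 6 auxin libraries, and 0.132 and 0 CPM in day 6 controls (washout against day 6 auxin -6.23, adjusted p = 1.6e-08). In day 4 auxin libraries it had 9.19 and 8.04 CPM, against 0.101 and 0.122 CPM in day 4 controls. Sema7a, a membrane-anchored semaphorin, had 2.28 and 2.77 CPM in washout libraries, 11.5 and 11.5 CPM in day 6 auxin libraries, and 3.21 and 3.52 CPM in day 6 controls (washout against control -0.41 ± 0.16, adjusted p = 0.059). Emx1 in washout was thus at the trace level of controls, while Sema7a lay slightly below its controls without passing the threshold.

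Other genes had moved part of the way. Bak1 (chr17:27019810-27029009, minus strand), a mitochondrial effector of apoptosis, had 25.4 and 26.3 CPM in washout libraries, 4.63 and 5.07 CPM in day 6 auxin libraries, and 58 and 61.4 CPM in day 6 controls. Washout differed from control (-1.21 ± 0.07, adjusted p = 1.5e-09) and from day 6 auxin (2.41, adjusted p = 1.1e-11), and the departure was smaller than on day 4 (difference 2.45 ± 0.10, adjusted p = 5.7e-10). Osr1, a zinc-finger factor of intermediate mesoderm, had 17.8 and 20.3 CPM in washout libraries, 11.8 and 11 CPM in day 6 auxin libraries, and 38.7 and 40.7 CPM in day 6 controls (washout against control -1.06 ± 0.10, adjusted p = 8.9e-07). Bak1 and Osr1 thus lay between continued auxin and control, with no overlap on either side. Boc, a hedgehog co-receptor, had 19 and 19.2 CPM in washout libraries, 10.1 and 10.1 CPM in day 6 auxin libraries, and 33.3 and 33.4 CPM in day 6 controls (washout against control -0.80 ± 0.07, adjusted p = 4.3e-07). Cyp1a1, the xenobiotic-metabolizing target of the aryl hydrocarbon receptor, stood at 1.73 and 2.22 CPM in washout libraries, beside 14 and 14.3 CPM in day 6 auxin libraries and 0.628 and 0.922 CPM in day 6 controls (washout against control 1.34 ± 0.18, adjusted p = 2.2e-05). Boc was below control and above continued auxin, and Cyp1a1 the reverse. Grb10, an imprinted adaptor of growth factor signalling, had 70.3 and 78 CPM in washout libraries, 170 and 173 CPM in day 6 auxin libraries, and 36.7 and 37.4 CPM in day 6 controls (washout against control 1.00 ± 0.07, adjusted p = 2.2e-08).

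**Figure D3:**
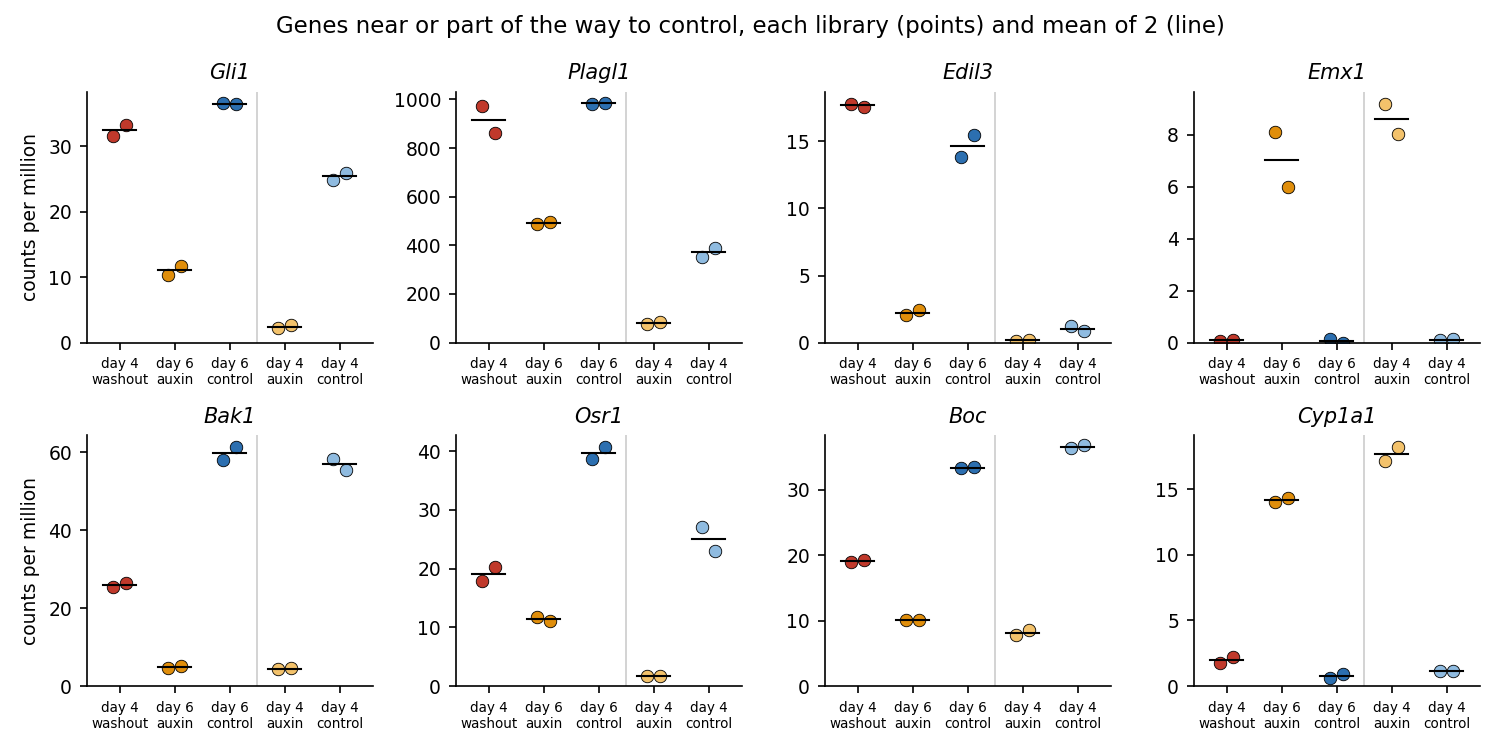
CPM of 8 genes in each library of 5 groups, with the mean of 2 libraries as a line. In the top row the day 4 washout libraries lie beside the day 6 controls, and in the bottom row they lie between the day 6 auxin and the day 6 control libraries.

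The clustered protocadherins are cell-surface proteins whose alternative promoters are chosen with the help of CTCF. For all genes the shares were 11.8% lower on day 4, and 17.1% lower and 16.8% higher in washout. The departure rose in 10.2% of all genes. Of 21 tested genes of the gamma cluster, 17 were lower and none higher on day 4 of auxin, whereas 10 were lower and 1 higher in washout, and the departure was smaller in 17. The 10 lower genes became 5 without day 4 washout replicate 2 or without day 6 control replicate 2. The summed level was 67 and 61.7 CPM in washout libraries, 38 and 37.9 CPM in day 6 auxin libraries, and 86.5 and 87.2 CPM in day 6 controls. Pcdhga7 had 3.9 and 3.64 CPM in washout libraries, 0.418 and 0.816 CPM in day 6 auxin libraries, and 7.95 and 7.9 CPM in day 6 controls (washout against control -1.07 ± 0.20, adjusted p = 0.0006). Of 19 beta-cluster genes 15 were lower on day 4. In washout 8 were lower, or 4 without day 4 washout replicate 2, and 1 was higher, and the departure was called smaller in 5 and not called in 14. Their summed level was 16.4 and 13.3 CPM in washout libraries, 4.93 and 5.78 CPM in day 6 auxin libraries, and 35.1 and 33.8 CPM in day 6 controls. These genes resemble each other, so reads may have been split between copies.

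Cholesterol synthesis and germline genes moved in the same manner from opposite sides. Of all genes, 11.8% were called each way on day 4, and 16.8% were higher and 17.1% lower in washout. The departure rose in 10.2% of all genes and fell in 10.5%. Of 23 cholesterol genes 20 were lower on day 4 of auxin, 10 were lower and 1 higher in washout, and the departure rose in 14 and fell in 2. Dhcr7, which makes the last step to cholesterol, had 55.6 and 56.5 CPM in washout libraries, 48.7 and 49.4 CPM in day 6 auxin libraries, and 71.9 and 76.5 CPM in day 6 controls (washout against control -0.41 ± 0.06, adjusted p = 0.00011). Of 26 germline genes 22 were higher and none lower on day 4 of auxin, and 12 were higher and 3 lower in washout, with a fall of the departure in 17. Without day 4 washout replicate 2 the 12 became 6. Sycp3, a protein of the meiotic chromosome axis, showed no called change of its departure (adjusted p = 0.38), with 22.1 and 24.5 CPM in washout libraries, 17.5 and 16.8 CPM in day 6 auxin libraries, and 10.9 and 9.47 CPM in day 6 controls (washout against control 1.20 ± 0.12, adjusted p = 8.2e-07). Of 35 imprinted genes, 12 were lower and 7 higher in washout, which became 5 and 4 without day 6 control replicate 1.

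CTCF also binds at some promoters, so promoter sequence was examined. RefSeq promoter windows (build GRCm38.p6, 250 bases before to 50 after each start) were matched by symbol to 13827 of the 22587 tested genes. The core of the CTCF motif (CCA, 2 bases of any kind, AG, 2 bases of any kind, GGC) was searched on both strands. It was present for 3.28% of genes with a window. Among genes lower in washout the share was 3.09%, and among genes lower both on day 4 and in washout 3.46%, both near the share of all genes. Among all genes lower on day 4 it was 4.38%. Genes in the other direction also lay above the share of all genes, with 3.82% of those higher on day 4 and 3.73% of those higher in washout. Among the 409 genes with a window that were lower on day 4, not called in washout and had a smaller departure, 24 held it (5.87%). With the third base free as well, the shares were 13.8% of all genes, 17.6% of genes lower on day 4 and 22% of that set. They were 15.3% of genes higher on day 4 and 15.5% of genes higher in washout. These are descriptions of letters in a window, and no binding was measured here.

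Of these 24 genes, 18 had a mean of at least 10 CPM. From the 6 of them with the largest fall on day 4, chosen after their values were seen, the 5 whose motif lies before the RefSeq start are shown up to that start at most, 5′ to 3′ on the gene's strand, with the motif in capitals, to show the matches that were counted. The windows are chr4:126321704-126321807 (minus strand) for Adprhl2, chr8:123443178-123443258 (plus strand) for Def8, chr3:89246319-89246426 (plus strand) for Krtcap2, chr17:45563686-45563793 (plus strand) for Slc35b2 and chr10:79793482-79793571 (plus strand) for Palm, in GRCm38.p6.
Adprhl2: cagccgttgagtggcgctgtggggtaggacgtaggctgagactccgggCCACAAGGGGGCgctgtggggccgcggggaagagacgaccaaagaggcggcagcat
Def8: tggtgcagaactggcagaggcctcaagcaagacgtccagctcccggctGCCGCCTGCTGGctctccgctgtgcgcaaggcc
Krtcap2: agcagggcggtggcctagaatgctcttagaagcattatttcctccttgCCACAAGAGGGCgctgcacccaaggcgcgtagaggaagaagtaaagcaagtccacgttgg
Slc35b2: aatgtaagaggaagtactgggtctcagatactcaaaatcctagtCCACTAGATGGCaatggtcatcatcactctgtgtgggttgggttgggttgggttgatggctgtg
Palm: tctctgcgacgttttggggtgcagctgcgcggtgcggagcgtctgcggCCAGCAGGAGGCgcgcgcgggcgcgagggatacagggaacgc

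All 5 had a washout level not called different from control. Levels are those of the whole gene, and for Def8 and Krtcap2 the window shown lies inside the gene's span in GENCODE vM21. Adprhl2, an ADP-ribose hydrolase gene, had 51.9 and 51.4 CPM in washout libraries, 22.3 and 20.8 CPM in day 6 auxin libraries, and 55.6 and 54 CPM in day 6 controls (washout against control -0.09 ± 0.08, adjusted p = 0.44). On day 4 it had 16.4 and 18.3 CPM in auxin libraries against 55.7 and 56.1 CPM in controls (-1.69 ± 0.08, adjusted p = 4e-10). Its washout libraries thus lay near both controls, unlike either auxin group. Def8 had 68.9 and 73.2 CPM in washout libraries, 26.9 and 28.8 CPM in day 6 auxin libraries, and 78.2 and 81.8 CPM in day 6 controls (washout against control -0.17 ± 0.07, adjusted p = 0.086). Krtcap2, a subunit of the complex that attaches sugar chains to new proteins, had 46.8 and 46.4 CPM in washout libraries, 19.6 and 20 CPM in day 6 auxin libraries, and 43.5 and 45.6 CPM in day 6 controls (washout against control 0.06 ± 0.11, adjusted p = 0.7). The washout libraries of Def8 lay just below the controls, and those of Krtcap2 just above them. Palm, a lipid-anchored membrane protein, had 60.2 and 54.8 CPM in washout libraries, 37.6 and 34 CPM in day 6 auxin libraries, and 62.5 and 67 CPM in day 6 controls (washout against control -0.17 ± 0.09, adjusted p = 0.15). Slc35b2, a carrier of the sulfate donor into the Golgi, had 74.7 and 79.5 CPM in washout libraries, 42.4 and 37.9 CPM in day 6 auxin libraries, and 86.4 and 92.7 CPM in day 6 controls (washout against control -0.22 ± 0.09, adjusted p = 0.092). In each of these 5 genes the day 6 auxin libraries were the lowest of the 3 groups.

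Immediate early genes, which respond within minutes to growth factors, serum or stress, were higher in washout for 20 of 20 members, with a median log2 fold change of 1.64, beside 16.8% of all genes. On day 4 of auxin 3 of them were higher (Egr1, Nr4a1 and Egr2) and 8 lower, with a median log2 fold change of -0.15. Of all genes, 11.8% were called each way on day 4. The summed level was 1745 and 1723 CPM in washout libraries, 508 and 510 CPM in day 6 auxin libraries, and 504 and 518 CPM in day 6 controls. In 18 of the 20, all 4 washout libraries lay above the other 12 differentiation libraries, so the response and the difference between libraries cannot be told apart.

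Egr3 (chr14:70077203-70082614, plus strand), a zinc-finger factor of this class, had 9.19 and 7.87 CPM in washout libraries, 0.0334 and 0.0725 CPM in day 6 auxin libraries, and 0.0661 and 0.237 CPM in day 6 controls (washout against control 5.74 ± 0.48, adjusted p = 1.6e-07). Egr1 had 281 and 277 CPM in washout libraries, 36 and 38 CPM in day 6 auxin libraries, and 30.1 and 36.2 CPM in day 6 controls (washout against control 3.07 ± 0.10, adjusted p = 5.2e-12). Nr4a1, an orphan nuclear receptor, had 42.1 and 32.1 CPM in washout libraries against 4.63 and 4.04 CPM in day 6 controls (3.10 ± 0.16, adjusted p = 5.2e-10). The washout libraries were high in every one of these, with no overlap with control. On day 4 the log2 fold change in auxin had been 0.95 for Egr1 (adjusted p = 7.2e-07), 0.81 for Nr4a1 (adjusted p = 0.0018) and 0.94 for Egr2 (adjusted p = 0.027). In the fit of all 24 libraries Egr1 (adjusted p = 0.69) and Egr2 (0.32) lost this call. Without day 4 control replicate 2 the change for Egr2 was 0.50. Atf3 (chr1:191170296-191218039, minus strand), a stress-induced bZIP factor, had 94.7 and 90.2 CPM in washout libraries, 13.1 and 13.4 CPM in day 6 auxin libraries, and 8.66 and 10.5 CPM in day 6 controls (washout against control 3.27 ± 0.12, adjusted p = 1.3e-11).

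Of 27 muscle contractile genes 17 were higher in washout and none lower, with all 4 washout libraries above the other 12 in 14. Their summed level was 2359 and 2229 CPM in washout libraries, 2077 and 2067 CPM in day 6 auxin libraries, and 1354 and 1380 CPM in day 6 controls, so continued auxin was above control too. Mylk, the myosin light chain kinase, had 33 and 36.4 CPM in washout libraries, 27.7 and 26.6 CPM in day 6 auxin libraries, and 9.72 and 9.8 CPM in day 6 controls (washout against control 1.83 ± 0.10, adjusted p = 1.4e-09). Mylk was thus high in both groups that had been in auxin. Tagln, an actin-binding protein of smooth muscle, had 20.4 and 19 CPM in washout libraries, 3.14 and 2.79 CPM in day 6 auxin libraries, and 1.69 and 1.96 CPM in day 6 controls (washout against control 3.43 ± 0.16, adjusted p = 2.4e-10). Ankrd1, a cardiac and mechanosensitive ankyrin-repeat protein, had 31.1 and 33.1 CPM in washout libraries, 2.71 and 2.72 CPM in day 6 auxin libraries, and 2.41 and 2.85 CPM in day 6 controls (washout against control 3.60 ± 0.12, adjusted p = 9.6e-12). Tagln and Ankrd1 were high in the washout libraries and low in day 6 auxin and control libraries. Of 23 p53 target genes 15 were higher and 2 lower, with 9 standing apart, beside 16.8% higher and 17.1% lower of all genes. Of 22 genes of the integrated stress response 10 were higher and 7 lower, and without day 4 washout replicate 1 or day 6 control replicate 1 the lower ones were 4. Gdf15, a stress-induced cytokine, had 5.43 and 5.61 CPM in washout libraries, 3.41 and 2.03 CPM in day 6 auxin libraries, and 0.876 and 1.28 CPM in day 6 controls (washout against control 2.34 ± 0.26, adjusted p = 2.9e-06).

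Of 31 mesenchyme and fibroblast genes 15 were higher and 3 lower, and of 31 collagen and matrix genes 13 were higher and 5 lower, beside 16.8% and 17.1% of all genes. All 4 washout libraries lay above the other 12 for 9 mesenchyme and 8 matrix genes, and the 13 became 7 without day 4 washout replicate 1 or without day 6 control replicate 2. Tcf21, a bHLH factor of mesenchyme, had 22.3 and 23.7 CPM in washout libraries, 3.88 and 3.52 CPM in day 6 auxin libraries, and 5.88 and 5.64 CPM in day 6 controls (washout against control 2.00 ± 0.12, adjusted p = 2.6e-09). Lum, a matrix proteoglycan of fibroblasts, had 20.1 and 21.7 CPM in washout libraries, 3.07 and 2.86 CPM in day 6 auxin libraries, and 12.5 and 11.6 CPM in day 6 controls (washout against control 0.79 ± 0.12, adjusted p = 0.00014). Both were highest in the washout libraries and both stood apart from the other 12 differentiation libraries. Of the 27 muscle genes, Actc1 was not called, with 9.14 and 13.1 CPM in washout libraries against 11.3 and 11.5 CPM in day 6 controls (adjusted p = 0.9).

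**Figure D4:**
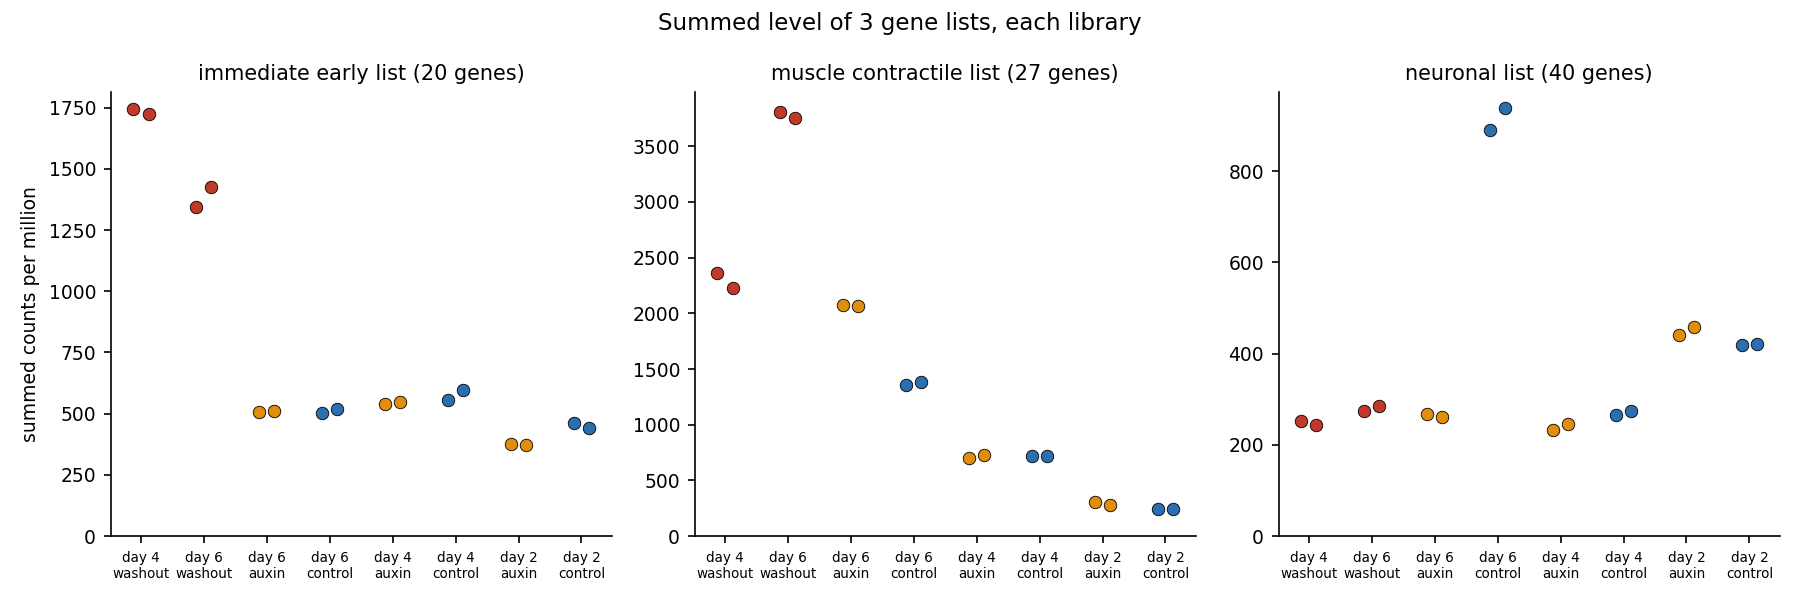
Summed CPM of the immediate early, muscle contractile and neuronal lists in each of the 16 differentiation libraries. Both washout groups lie above the rest for the immediate early list (day 4 washout 1745 and 1723, day 6 control 504 and 518), while for the neuronal list the day 6 controls (891 and 938) lie above all others.

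The CArG box, the binding motif of serum response factor, is a textbook element of immediate early and contractile promoters. A search chosen after these values were seen found it in 1.69% of tested genes with a window, in 3.09% of the genes higher in washout and in 1.47% of those lower. It was present in 2 of 14 immediate early windows and 5 of 22 muscle contractile windows. The muscle holders were Acta1, Actc1, Cnn2, Myl7 and Myl9, of which Acta1 (0.87, adjusted p = 7e-06) and Myl7 (0.76, adjusted p = 0.00075) were also higher in washout and Actc1 was not called. As examples, Egr2, Zfp36, Cnn2 and Myl9 are shown with the box in capitals, 5′ to 3′ before the start of the gene. The box is a known element of these classes, so finding it in these lists decides nothing. A cause was not tested, and no binding was measured here. The windows are chr10:67537445-67537552 (plus strand), chr7:28379229-28379335 (minus strand), chr10:79988495-79988599 (plus strand) and chr2:156775254-156775361 (plus strand), in that order, in GRCm38.p6 as given by RefSeq.
Egr2: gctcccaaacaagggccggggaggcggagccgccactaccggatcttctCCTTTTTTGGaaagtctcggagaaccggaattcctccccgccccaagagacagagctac
Zfp36: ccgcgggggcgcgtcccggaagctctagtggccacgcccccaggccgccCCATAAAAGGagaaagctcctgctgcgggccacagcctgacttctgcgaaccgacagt
Cnn2: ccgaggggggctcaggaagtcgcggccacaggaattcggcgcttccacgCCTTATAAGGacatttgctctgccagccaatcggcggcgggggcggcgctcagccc
Myl9: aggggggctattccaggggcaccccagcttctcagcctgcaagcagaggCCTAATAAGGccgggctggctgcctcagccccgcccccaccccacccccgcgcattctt

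Egr2, a zinc-finger factor, had 7.48 and 8.57 CPM in washout libraries, 0.501 and 0.743 CPM in day 6 auxin libraries, and 0.991 and 1.01 CPM in day 6 controls (adjusted p of washout against control 4.2e-08). Zfp36, which promotes decay of cytokine mRNAs, had 38.2 and 37.4 CPM in washout libraries, 10.3 and 10.4 CPM in day 6 auxin libraries, and 15.7 and 17 CPM in day 6 controls (washout against control 1.21 ± 0.10, adjusted p = 8.1e-08). Cnn2, a calponin, had 300 and 303 CPM in washout libraries against 174 and 188 CPM in day 6 controls (0.74 ± 0.06, adjusted p = 1.6e-07). Myl9, a regulatory light chain of smooth muscle myosin, had 124 and 127 CPM in washout libraries, a mean of 107 ± 1.7 CPM in day 6 auxin libraries (SD, n = 2), and 74.8 and 80 CPM in day 6 controls (washout against control 0.70 ± 0.08, adjusted p = 2.7e-06). For Myl9 the day 6 auxin libraries lay between the other groups, while for Egr2 and Zfp36 they lay below control.

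Some RNA classes were low in washout and not on day 4 of auxin, to be read against 17.1% and 11.8% lower of all genes. Of 31 replication-dependent histone genes, whose mRNAs lack a poly(A) tail, 15 were lower and none higher in washout, with 11 below the other 12 libraries, and none was called on day 4 of auxin. Rn7sk, a structural RNA without a poly(A) tail, had 1.29 and 2.33 CPM in washout libraries, 15.2 and 14.3 CPM in day 6 auxin libraries, and 23 and 13.4 CPM in day 6 controls (washout against control -3.31 ± 0.24, adjusted p = 2.3e-08). Of 1633 tested processed pseudogenes, 27.9% were higher and 9.55% lower in washout than in day 6 controls, beside 16.8% and 17.1% of all genes. Higher ones were 3.25% in day 6 auxin cells and 2.57% in day 4 auxin cells, beside 14% and 11.8% of all genes. Among the 24 highest called genes by fold, 14 were predicted genes without a name of their own, and among the 24 lowest 0 were. The share of such genes over all tested genes is not given here. Pgk1, a glycolytic enzyme with several near-identical copies in the genome, had 112 and 123 CPM in washout libraries against 327 and 292 CPM in day 6 controls (-1.40 ± 0.08, adjusted p = 9.9e-10), and its 4 washout libraries were below the other 12. Its reads may be shared with those copies, so the value is uncertain.

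The two-cell-like and DNA replication lists are to be read against 17.1% lower and 16.8% higher of all genes. Genes of the two-cell-like list mark a rare totipotent-like state of ES cells. They were lower in washout for 12 of 21 tested members and higher for none, and 9 stood apart. Their summed level was 19 and 24.4 CPM in washout libraries, 54.4 and 52.4 CPM in day 6 auxin libraries, and 62.3 and 51.8 CPM in day 6 controls. Zscan4b, of a family with near-identical copies, had 1.09 and 1.17 CPM in washout libraries against 5.47 and 4.51 CPM in day 6 controls (-2.13 ± 0.17, adjusted p = 7.8e-08). Among 32 DNA replication and cell cycle genes 8 were lower, or 4 without day 6 control replicate 1, and 1 was higher, and the median was -0.07.

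**Figure D5:**
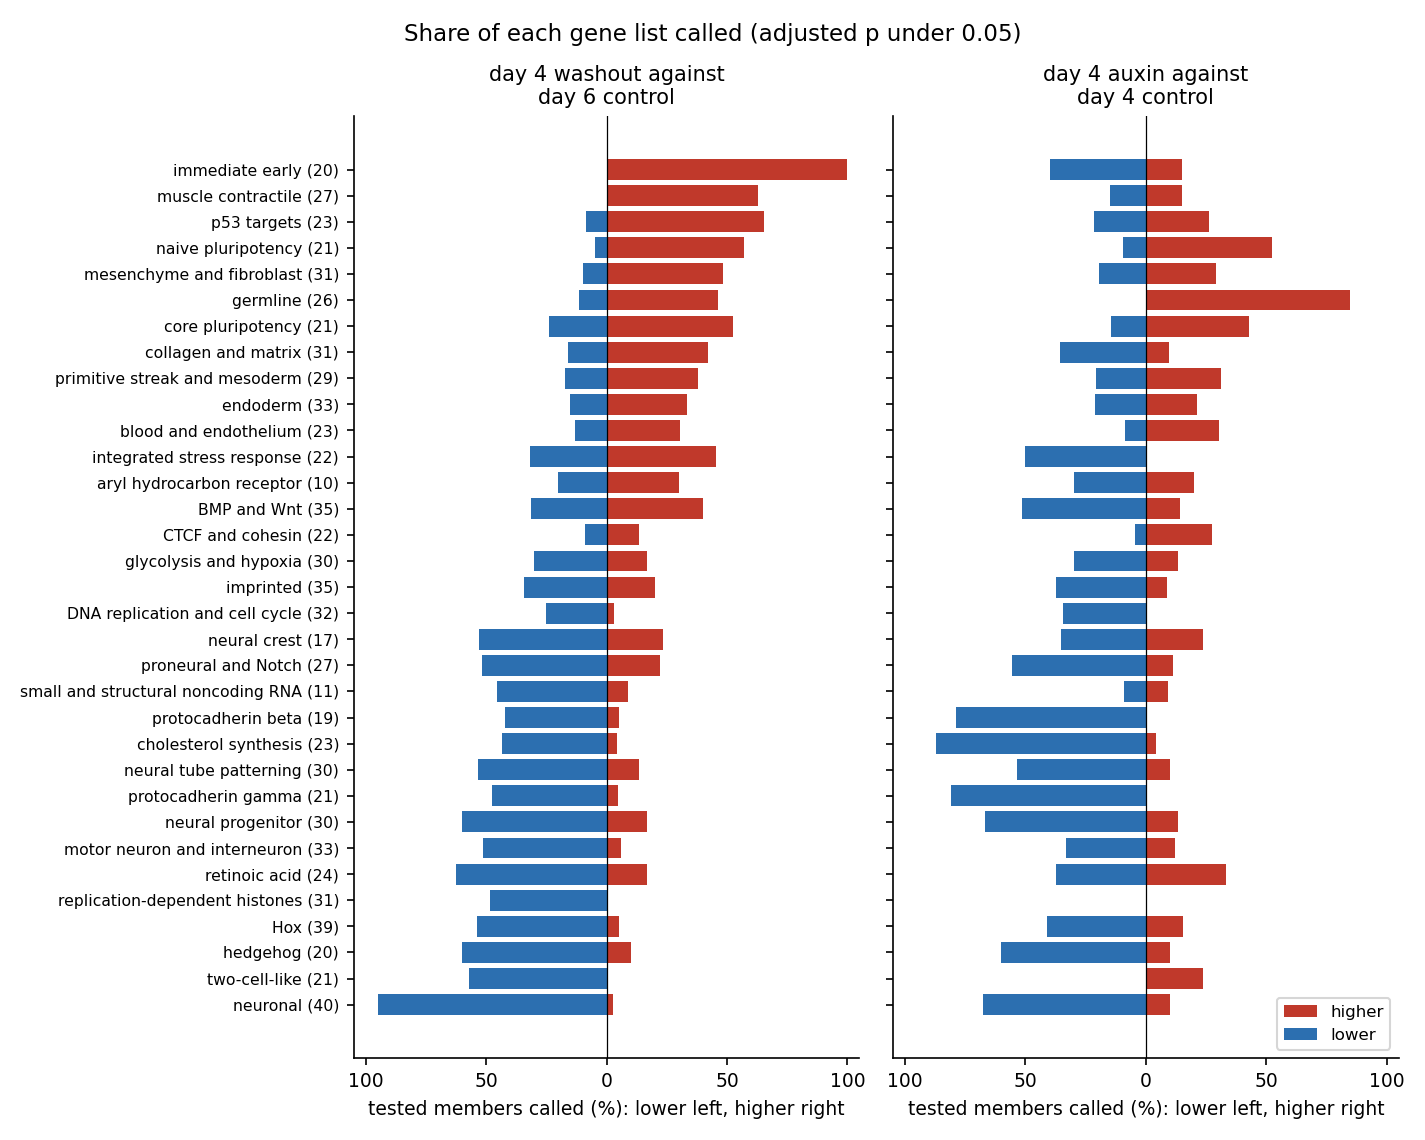
Share of the tested members of 33 gene lists called higher (to the right) or lower (to the left) in day 4 washout against day 6 control (left panel) and in day 4 auxin against day 4 control (right panel), with the number tested in brackets. The immediate early list is at the top with 20 of 20 higher in washout and the neuronal list at the bottom with 38 of 40 lower.

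In the fit of all 24 libraries, list counts were smaller. There 28 neuronal genes were lower, 18 immediate early and 7 muscle contractile genes were higher, 3 Hox and 3 retinoic acid genes were lower, 6 core and 7 naive pluripotency genes were higher, and the hedgehog list had no call.

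The remaining lists divided as follows. Of 35 BMP and Wnt genes 14 were higher and 11 lower (7 without day 4 washout replicate 2), and for 12 of the 35 all 4 washout libraries lay above the other 12. Bmp7, a secreted ligand, had 21.1 and 21 CPM in washout libraries against 65.5 and 67.8 CPM in day 6 controls (-1.66 ± 0.07, adjusted p = 1.5e-10). Of 22 CTCF and cohesin genes 3 were higher and 2 lower, and of 10 aryl hydrocarbon receptor genes 3 were higher and 2 lower. Of 30 glycolysis and hypoxia genes 5 were higher and 9 lower, and of 11 small and structural noncoding RNAs 1 was higher and 5 lower. Between day 2 and day 4 in controls 27.2% of all genes were called higher and 24.8% lower (52.1% in all). Of 1142 genes that had gone up at least 4-fold in that time, 278 were higher (24.3%) and 268 lower (23.5%) in washout, beside 16.8% and 17.1% of all genes. Of 940 that had gone down at least 4-fold, 138 were higher (14.7%) and 60 lower (6.38%).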

How the data were processed

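RNA from 24 libraries (12 groups of 2) was read on a HiSeq4000 (Illumina), as the labels' protocols state. The authors deposited a table of whole-number read counts per gene, and the submitters' processing notes name STAR, HTSeq, edgeR and mm10; for versions, strand setting and annotation the sources used here give nothing. The table held 51697 genes, besides 1 unnamed line, which was dropped.

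From these counts, genes were filtered with filterByExpr (minimum count 10, minimum total 15) over the 16 differentiation libraries, scaled with edgeR's TMM factors and tested with edgeR 4.0.16 (R 4.3.3, limma 3.58.1) by the quasi-likelihood test with Benjamini-Hochberg adjustment over 22587 genes, in 6 comparisons. Positions are from GENCODE vM21, matched for 95.3% of tested genes, and promoter windows from RefSeq (GRCm38.p6). On data simulated from these counts, the test called 89.6% of genes planted at 1.5-fold and 98.5% at 2-fold in day 4 washout against day 6 control, and 5 of 21950 unchanged genes. Planted genes averaged above 1 in log2 CPM, and the simulated spread depended on level alone. No shift between washout and other libraries was simulated, so these shares do not cover the difference between libraries described above. Count precision is limited by totals of 51053184 to 72048935 per library.

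The comparison and the 33 gene lists (889 symbols, 99.4% in the table) were chosen with earlier results of these data known. Genes named were Ctcf, up to 12 with the largest change each way, up to 8 each way with the same direction on day 4 and up to 8 with opposite directions (all averaging 1 or more in log2 CPM, with groups that do not overlap, predicted genes left out), and up to 4 per list, called ones first. Markers of cell type, genes back near control, promoter motif holders and the CArG box search stand outside this rule, and these genes and the search were chosen after values were seen. Alternatives were other scalings, filters, thresholds, libraries in the fit, protein-coding genes alone, counts divided by 2, DESeq2 1.42.0, a replicate block, each library left out, and a looser promoter motif.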

Additional observations from a re-analysis of the deposited data

Results flagged for a closer look

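The departure from same-day control differed between day 4 washout and day 4 auxin for 4694 genes by edgeR's test of the difference itself. The 8 genes named for opposite calls at these times divide evenly.

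Higher than control in washout and lower on day 4 of auxin were Npas4, Fosb, Cdh11 and Gucy1a3. Npas4, an activity-induced bHLH factor, had 5.34 and 4.24 CPM in washout libraries against 0.33 and 0.279 CPM in day 6 controls, and its departure changed by 6.42 on the log2 scale. For Fosb, an AP-1 subunit, washout libraries had 57.3 and 57.6 CPM against 8.59 and 3.94 CPM in day 6 controls, and the departure changed by 4.44. Cdh11, a cadherin of mesenchyme, had 88.3 and 93.1 CPM in washout libraries against 35.3 and 37.2 CPM in day 6 controls, with a change of 3.07. Gucy1a3, a subunit of the nitric oxide receptor, had 10.8 and 11.4 CPM in washout libraries against 4.35 and 4.52 CPM in day 6 controls, with a change of 4.00. In all 4 genes, all washout libraries, day 6 washout included, lay above the other 12 differentiation libraries.

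Lower than control in washout and higher on day 4 of auxin were Nefl, Rundc3a, Vat1l and Enpp2. Nefl, the light neurofilament chain, had 4.67 and 5.85 CPM in washout libraries against 19.7 and 21.2 CPM in day 6 controls. In day 4 auxin libraries it had 12.9 and 13.2 CPM, against 3.38 and 3.92 CPM in day 4 controls, and the departure changed by -3.79. The change was -2.32 for Rundc3a, -2.07 for Vat1l and -1.85 for Enpp2, which makes lysophosphatidic acid. For Rundc3a and Vat1l the 4 washout libraries lay below the other 12. Cdh11, Rundc3a and Enpp2 were not called in washout against control in the fit of all 24 libraries (adjusted p of 0.12, 0.14 and 0.087).

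The day 4 calls behind these opposite directions were weaker. In the fit of all 24 libraries they were lost for Npas4 (adjusted p = 0.43), Fosb (0.19), Cdh11 (0.087), Rundc3a (0.11), Vat1l (0.088) and Enpp2 (0.18). Npas4 also lost its day 4 call without day 4 auxin replicate 2, without either day 4 control library and with counts divided by 2 (adjusted p of 0.063 to 0.28). Fosb lost it without day 4 auxin replicate 1 (0.061) and without day 4 control replicate 2 (0.091).

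The day 6 washout libraries, which the report uses in the fit and in the comparison of 4 washout libraries with the other 12 but tests against no control, also had high levels of 2 lists. The immediate early list summed to 1344 and 1427 CPM there, against 504 and 518 CPM in day 6 controls, and the muscle contractile list to 3809 and 3750 CPM, against 1354 and 1380 CPM. A control of the same harvest day was not analysed here.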

How the results depend on the processing

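Counts of called genes are given for washout against day 6 control, day 4 auxin against day 4 control, the change of departure, washout against day 6 auxin, day 6 auxin against day 6 control, day 4 against day 2 control, and the genes called the same way in washout and on day 4, in this order. With all 24 libraries they were 1635, 803, 502, 1606, 1564, 5746 and 229. At an adjusted p under 0.01 they were 5074, 3380, 2780 and 5058 for the first 4 and 1351 for the genes called the same way. With at least 2-fold they were 2224, 1292, 1776, 2295, 2032, 4838 and 343. Leaving out 1 library at a time gave 5328 to 5722, 3320 to 3739, 3350 to 3690, 5071 to 5703, 4630 to 4785, 9600 to 9957 and 1630 to 1920. Without the day 2 auxin libraries, chosen after seeing the data, washout against control was called for 10013 genes. The change of departure was called there for 7298 genes and the same direction for 3621. The day 2 auxin replicates spread most, with an SD of the log2 replicate ratio of 0.31, against 0.17 to 0.20 in the other groups. The causes were not tested. Of the called genes, 39.7% were higher on day 4 of auxin with all 24 libraries, and 40.6% between the control days with upper quartile scaling. Replicate numbers did not pair the groups, with correlations of -0.20 to 0.16 over 28 pairs of groups, and the replicate block called 7479 genes in washout against control. No named gene called in washout against control or on day 4 of auxin reversed its direction in that comparison under the alternatives run. With 2 libraries per group, and with the washout libraries standing apart, a count without the doubted libraries could not be made.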

Other observations

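Among genes outside the naming rule, chosen after their values were seen, Ctgf and Cyr61, secreted matricellular proteins induced by serum and mechanical signals, were high in washout. Ctgf had 162 and 150 CPM in washout libraries, 30.8 and 27.4 CPM in day 6 auxin libraries, and 28.2 and 31 CPM in day 6 controls (2.40 ± 0.09 for washout against control, adjusted p = 2.2e-11). Cyr61 had 659 and 625 CPM in washout libraries, 150 and 158 CPM in day 6 auxin libraries, and 135 and 150 CPM in day 6 controls (2.17 ± 0.08, adjusted p = 2.2e-11). In the day 6 washout libraries Ctgf had 108 and 96.4 CPM and Cyr61 had 389 and 372 CPM.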
